A study of Mus musculus with 9 samples.

Results

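The genes described here are 9 complement components, regulators and receptors, chosen by name from the 36528 genes listed for each library: the C1q subunits C1qa, C1qb and C1qc, the components C4b and C3, the regulators Cfp and Serping1, and the receptors C3ar1 and C5ar1. Their RNA was measured in myeloid cells sorted from mouse brain by the surface protein Cd11b, which is the product of Itgam and marks microglia, other macrophages, monocytes and neutrophils. Tau-P301L mice, which carry human tau with the P301L mutation of inherited frontotemporal dementia, gave 5 libraries, 2 from females and 3 from males, and wild-type (WT) mice gave 4, 2 from each sex. All animals were 11 to 12 months old, and the labels name no further allele or treatment in either group. No source used here gives the promoter that drives the transgene or the cells that express it. The labels do not say that each library came from a separate mouse, so the p-values measure the spread between libraries, part of which may be technical.

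Complement is a cascade of proteins that tags cells and debris. C1q, assembled from the products of C1qa, C1qb and C1qc, starts the classical pathway and leads to cleavage of C4 and then of C3, whose fragments coat the target and are read by receptors on phagocytes. In the brain, microglia are the main source of C1q, while astrocytes are a known source of C3 and C4, and C1q and C3 take part in the removal of synapses during development and in models of neurodegeneration.

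Gene-assigned reads per library numbered 1494727 to 2934587 in Tau-P301L and 2681666 to 3793606 in WT, and mitochondrially encoded genes took 10.2 to 23.1% of reads in Tau-P301L libraries and 9.30 to 20.0% in WT libraries. Levels are given as counts per 1000000 reads (CPM) after TMM scaling, and 3 reads corresponded to 0.831 to 2.09 CPM across libraries. All 14 microglial markers examined had reads in every library, with a summed level of 11720 to 19776 CPM in Tau-P301L and 14338 to 19095 CPM in WT libraries, led by Cx3cr1 and Itgam. Summed markers of border macrophages, led by Stab1 and Mrc1, reached 149 to 300 CPM in Tau-P301L and 231 to 315 CPM in WT libraries. Most of that sum was Stab1, which averaged 171 CPM, except in Tau-P301L library 3, where Stab1 was at 65.0 CPM and Mrc1 at 73.1 CPM. Of the 10 border macrophage markers, 5 had a read in every library. Astrocyte markers, led by Slc1a2 and Slc1a3, reached 318 to 686 CPM in Tau-P301L and 323 to 422 CPM in WT libraries, and the 3 highest sums were those of Tau-P301L libraries 3, 4 and 5. Slc1a2 and Slc1a3 made up most of the astrocyte sum in every library. Neuron markers, led by Snap25 and Syt1, reached 82.6 to 195 CPM in Tau-P301L and 111 to 235 CPM in WT libraries. Monocyte markers, led by Ccr2 and Vcan, reached 41.9 to 78.8 CPM in Tau-P301L and 26.4 to 81.8 CPM in WT libraries. Of the 8 monocyte markers, 2 had a read in every library. The others were nearly absent: Ly6c2, Plac8, S100a4, Chil3, Ace and Treml4 had 1, 4, 7, 36, 7 and 1 reads in all. Neutrophil markers, led by Ngp and S100a9, summed to 1.27 to 281 CPM in Tau-P301L and to 0.341 to 81.5 CPM in WT libraries. Endothelial markers (Pecam1, Kdr) summed to at most 39.8 CPM, mural and fibroblast markers (Abcc9, Pdgfrb) to at most 18.9 CPM and lymphocyte markers (Cd79b, Cd3d) to at most 4.90 CPM in any library, and 4 of the 9 lymphocyte markers found had no read.

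Upstream sequence was held for 6 of the 9 genes in a RefSeq table of GRCm38.p6, and there was no entry for C1qa, C4b and Serping1. The 250 bases before the start site are printed for C1qb, C1qc, C3ar1 and C5ar1, the genes with the most reads among those 6, and capitals mark GAGGAA, the core bound by the myeloid factor PU.1, and TGCTGA, the half-site of the macrophage factors of the MAF family, on either strand. These windows lie on the minus strand at chr4:136886201-136886450, chr4:136892915-136893164, chr6:122856158-122856407 and chr7:16259339-16259588, and the starts used for C1qc and C5ar1 lie inside the annotated genes.
C1qb: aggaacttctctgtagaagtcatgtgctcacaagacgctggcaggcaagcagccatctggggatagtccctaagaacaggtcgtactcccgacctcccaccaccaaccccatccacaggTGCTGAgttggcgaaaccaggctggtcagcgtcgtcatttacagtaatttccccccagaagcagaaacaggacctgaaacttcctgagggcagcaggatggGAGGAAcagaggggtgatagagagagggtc
C1qc: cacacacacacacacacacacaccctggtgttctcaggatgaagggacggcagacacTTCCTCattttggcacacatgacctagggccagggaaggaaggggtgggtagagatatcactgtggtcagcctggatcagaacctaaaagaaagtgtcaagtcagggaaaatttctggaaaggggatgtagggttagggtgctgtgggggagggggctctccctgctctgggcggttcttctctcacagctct
C3ar1: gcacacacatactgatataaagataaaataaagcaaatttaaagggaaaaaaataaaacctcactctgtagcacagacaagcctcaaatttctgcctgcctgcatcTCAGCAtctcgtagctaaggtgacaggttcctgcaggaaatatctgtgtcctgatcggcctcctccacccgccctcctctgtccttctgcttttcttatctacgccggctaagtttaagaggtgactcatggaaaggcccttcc
C5ar1: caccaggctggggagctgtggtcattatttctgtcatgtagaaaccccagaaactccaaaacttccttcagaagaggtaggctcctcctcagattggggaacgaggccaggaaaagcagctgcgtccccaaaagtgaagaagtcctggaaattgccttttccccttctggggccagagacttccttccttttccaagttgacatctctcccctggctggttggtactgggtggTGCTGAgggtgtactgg
The PU.1 core lay 30 bases before the start of C1qb and 193 before that of C1qc, where it is on the opposite strand (TTCCTC), and it was in 2 of the 6 windows, against 23.3% of all 32851 promoters in the table. The MAF half-site was in 4 of the 6, those of C1qb, C3, C3ar1 and C5ar1, against 16.1% of all promoters. Of 4 further motifs searched on both strands, TTNNGNAA (C/EBP) was in 3 windows and 36.8% of promoters and the NF-kB motif in 1 window and 1.4% of promoters. TTCNNNGAA (STAT) and the IRF motif were in 0 windows, and in 7.0% and 3.0% of promoters. These matches describe the letters only; no binding was measured.

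The 9 genes fell into an abundant and a scarce group in these cells. Compared per length, as the deposited normalised RPKM (nRPKM), C1qb averaged 165 ± 57.2 nRPKM in Tau-P301L and 153 ± 19.0 nRPKM in WT libraries (SD, n = 5 and 4), and its rank among all genes lay between 24 and 56 in every library. C1qc averaged 62.9 ± 17.3 nRPKM in Tau-P301L and 79.3 ± 25.4 nRPKM in WT, and C1qa 12.7 ± 4.93 nRPKM in Tau-P301L and 21.8 ± 5.99 nRPKM in WT. The order C1qb, C1qc, C1qa held in 9 of 9 libraries, and the 3 C1q genes held 83.2% of the reads of the whole set.

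The receptors came next. C3ar1 averaged 10.4 ± 3.70 nRPKM in Tau-P301L and 7.25 ± 2.38 nRPKM in WT libraries, below C1qa in 8 of the 9 libraries, and C5ar1 averaged 3.42 ± 0.906 nRPKM in Tau-P301L and 6.31 ± 2.57 nRPKM in WT, below C3ar1 in 7 of the 9. C5ar1 exceeded each scarcer gene in all 9 libraries. The scarce genes were Cfp at 0.601 ± 0.385 nRPKM in Tau-P301L and 0.254 ± 0.205 in WT, C4b at 0.284 ± 0.143 in Tau-P301L and 0.150 ± 0.0583 in WT, and C3 at 0.249 ± 0.258 in Tau-P301L and 0.0732 ± 0.0185 in WT. Serping1 averaged 0.0261 ± 0.0380 nRPKM in Tau-P301L and 0.0294 ± 0.0357 nRPKM in WT. The order among Cfp, C4b and C3 was not stable: Cfp was above C4b in 6 libraries and C4b above C3 in 6.

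**Figure D1:**
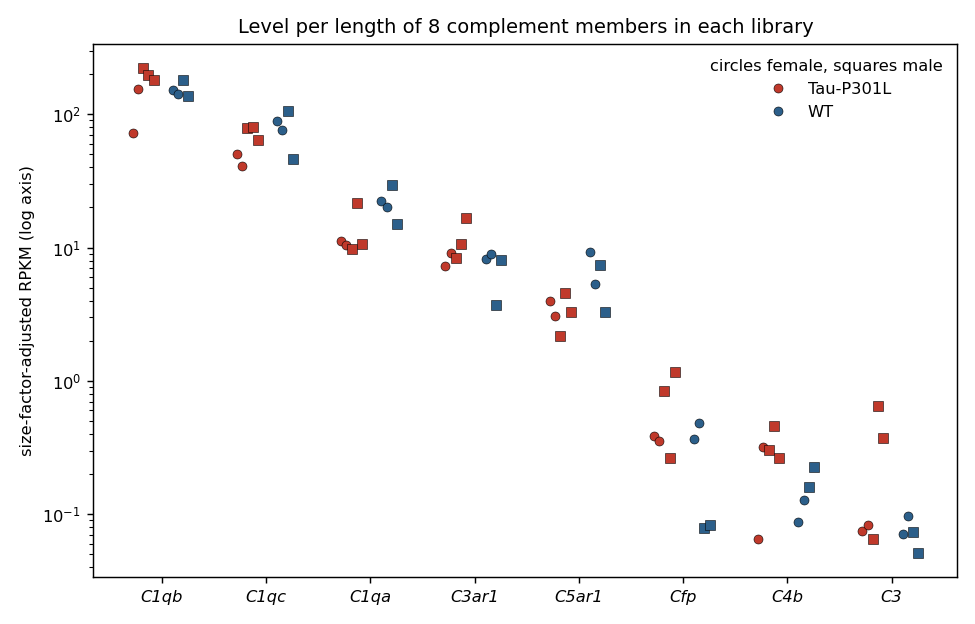
Level per length of 8 complement genes in each library, as normalised RPKM on a log axis, with Tau-P301L libraries (red) left of WT libraries (blue), circles for females and squares for males; Serping1, with no read in 5 libraries, is not drawn. C1qb, C1qc and C1qa stand highest, C3ar1 and C5ar1 follow, and Cfp, C4b and C3 lie below 2 nRPKM in every library.

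The first comparison asked whether any of the 9 genes differed between Tau-P301L and WT cells. By edgeR's quasi-likelihood test with sex as a second term and Benjamini-Hochberg adjustment, 0 of the 7 genes with enough reads to test passed an adjusted p of 0.05, against 1 of 12250 genes (0.00816%) over the whole table. DESeq2 likewise called 0 of the set, and 20 of 13169 genes (0.152%) in all. At an unadjusted p of 0.05, 2 of the 7 passed, C1qa and C5ar1, both lower in Tau-P301L, while 2.78% of all genes passed as lower and 3.57% as higher in Tau-P301L. The 7 genes divided into 4 with a positive and 3 with a negative log2 fold change, with a median of 0.00, and the median of all 12250 genes was -0.00. The CPM of the groups overlapped for 9 of the 9 genes. Over all 12250 genes tested, which do not include C3 and Serping1, 2.48% had groups that did not overlap. For a set of 9 genes, 0 without overlap is near that share. These are bulk libraries, in which fewer cells of a type and less RNA per cell cannot be told apart.

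**Figure D2:**
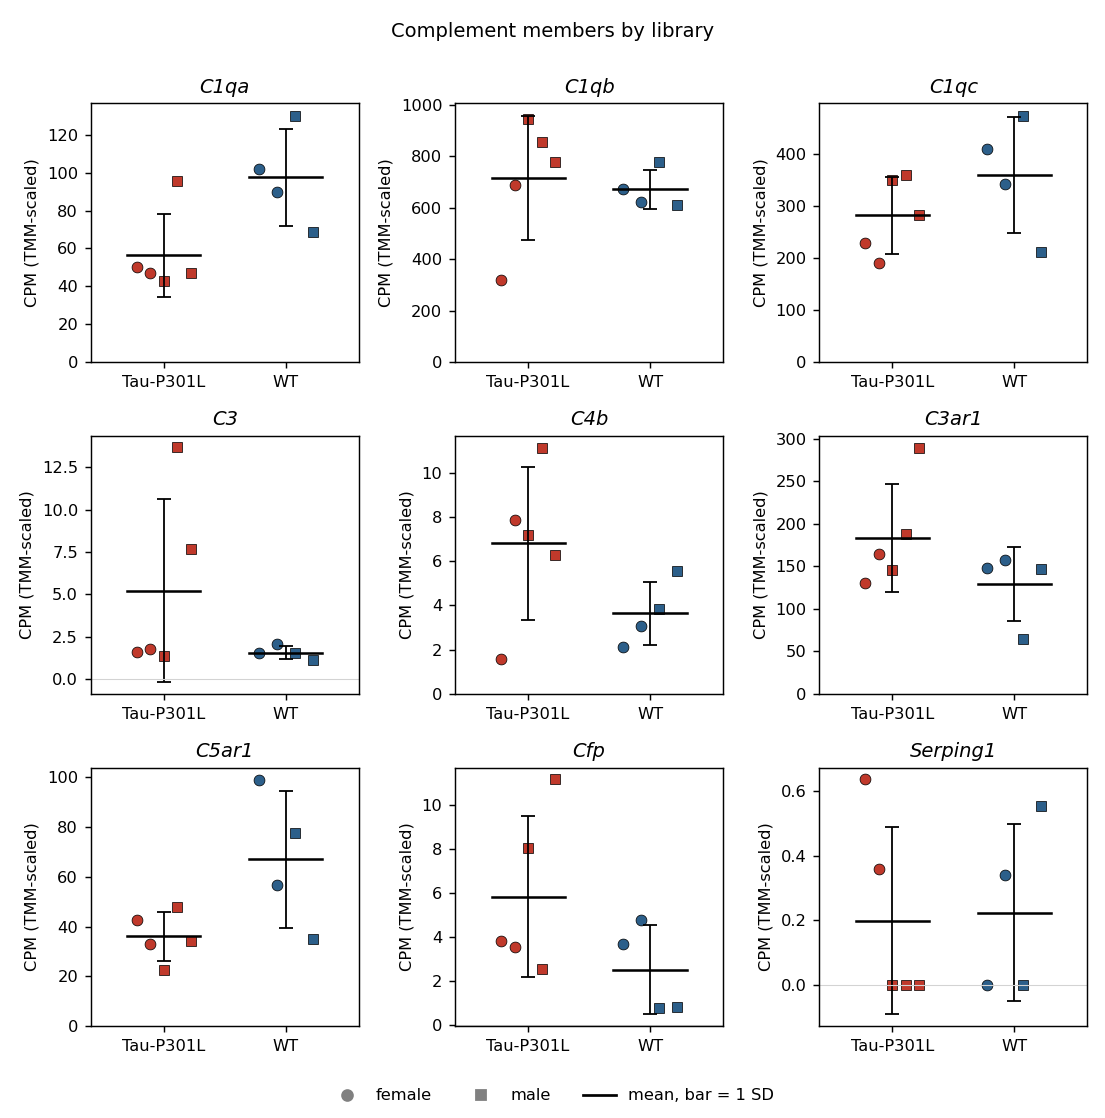
CPM of each of the 9 complement genes in the 5 Tau-P301L libraries (left in each panel) and the 4 WT libraries (right), with a circle per female and a square per male library and a line at the mean with a bar of 1 SD. The groups overlap in every panel, and C3 has 1 Tau-P301L library at 13.7 CPM while the 4 WT libraries lie between 1.11 and 2.05 CPM.

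C1q is the recognition molecule of the classical pathway. C1qa (gene 12259, chr4:136895916-136898844, GRCm38) had 50.2, 47.1, 42.6, 95.3 and 46.8 CPM in Tau-P301L libraries 1 to 5, against 101.8, 90.0, 130.1 and 68.4 CPM in WT libraries 1 to 4. Tau-P301L library 4, at 95.3 CPM, lay within the WT range, while the other 4 Tau-P301L libraries were all below the lowest WT library. The means were 56.4 ± 21.9 CPM in Tau-P301L and 97.6 ± 25.7 CPM in WT, and the log2 fold change was -0.82 (SE 0.30, 95% interval -1.44 to -0.19), with an unadjusted p of 0.0131 and an adjusted p of 0.707. This difference did not pass the threshold across all genes, nor did it without Tau-P301L library 4, where the log2 fold change was -1.06 (adjusted p 0.313).

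C1qb (gene 12260, chr4:136880126-136886200) had 321, 690, 944, 854 and 779 CPM in Tau-P301L libraries, against 675, 624, 778 and 610 CPM in WT libraries. Library 1 of Tau-P301L was the lowest of all 9 and libraries 3, 4 and 5 were the highest, so the WT values lay inside the Tau-P301L range. The log2 fold change was 0.00 (SE 0.27, 95% interval -0.57 to 0.57, adjusted p 0.9999). Its sign turned to -0.02 without the low-count filter and to -0.16 without WT library 4.

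C1qc (gene 12262, chr4:136889801-136892936) had 229, 190, 350, 360 and 283 CPM in Tau-P301L libraries, against 410, 343, 475 and 212 CPM in WT libraries. The 2 highest values were WT, but WT library 4 lay below 4 of the 5 Tau-P301L libraries. Means were 283 ± 74.1 CPM in Tau-P301L and 360 ± 112 CPM in WT, a log2 fold change of -0.42 (SE 0.26, 95% interval -0.96 to 0.13, adjusted p 0.802).

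The 3 C1q genes sit side by side on chromosome 4, on the minus strand within 18719 bases, with 3600 bases between C1qb and C1qc and 2979 between C1qc and C1qa. Their products join in equal amounts, so their ratio within a library, which does not depend on library scaling, was compared next. Per length, C1qa stood at 15.4, 6.71, 4.43, 11.0 and 5.89% of C1qb in Tau-P301L libraries, against 14.8, 14.2, 16.4 and 11.0% in WT libraries. Tau-P301L libraries 2, 3 and 5 were well below every WT library, library 4 was just below the lowest of them and library 1 lay among the WT values. On the log2 scale the ratio was -3.67 ± 0.72 in Tau-P301L and -2.84 ± 0.24 in WT, a difference of -0.83 (exact permutation test over 126 arrangements of the labels, two-sided, p = 0.0952, adjusted over the 3 ratios 0.143). The smallest p this design allows is 0.00794. Unlike the edgeR fit, the permutation had no sex term.

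Set against C1qc, C1qa stood at 22.2, 25.2, 12.4, 26.9 and 16.8% in Tau-P301L libraries, against 25.2, 26.7, 27.8 and 32.7% in WT libraries. Libraries 1, 3 and 5 of Tau-P301L were below every WT library, library 2 was level with the lowest and library 4 lay among them. The log2 ratio differed by -0.49 (exact permutation p = 0.0794, adjusted 0.143). C1qb over C1qc differed by 0.34 (exact permutation p = 0.294, adjusted 0.294), with a linear ratio of 1.45 to 3.76 in Tau-P301L and of 1.70 to 2.97 in WT libraries. None of the 3 ratios passed the threshold. Within the summed C1q level per length, the share of C1qa was 3.16 to 8.33% in Tau-P301L and 7.61 to 9.36% in WT libraries, so the groups overlapped there as well.

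**Figure D3:**
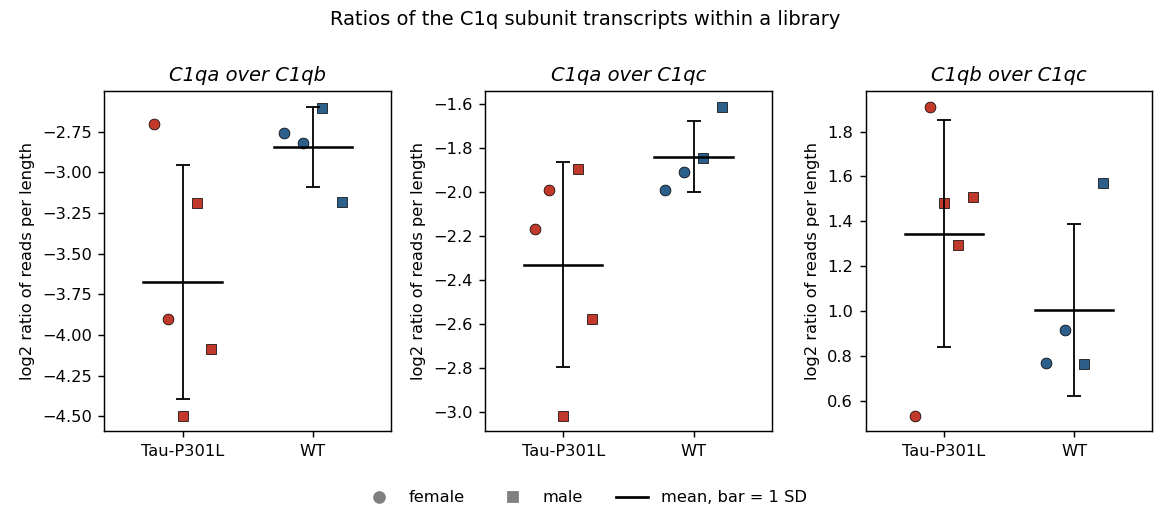
Log2 ratio per length between C1q subunits within each library, with Tau-P301L left and WT right for each ratio, a circle per female and a square per male library, and the mean with a bar of 1 SD. C1qa relative to C1qb and to C1qc is spread more widely in Tau-P301L than in WT libraries and the groups overlap.

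C4 and C3 are the components cleaved after C1q is engaged. C4b (gene 12268, chr17:34728139-34743902) had only 124 reads in all: 1.59, 7.86, 7.17, 11.1 and 6.28 CPM in Tau-P301L libraries, against 2.15, 3.07, 3.83 and 5.54 CPM in WT libraries. The 4 highest values were Tau-P301L and the lowest, library 1, was too. The log2 fold change was 0.82 (SE 0.64, 95% interval -0.52 to 2.16, adjusted p 0.839). C4b has a near copy, C4a, with which 35.18% of the 50-base windows of its transcript are shared. Only uniquely aligning reads were counted, so reads lying within shared stretches may have been left out. The C4b level, also per length, may therefore be too low. To C4a, 36 reads in all were assigned.

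C3 (gene 12266, chr17:57203967-57228136), the component on which all pathways converge, had 5, 5, 3, 32 and 11 reads in Tau-P301L libraries 1 to 5, against 5, 6, 4 and 4 reads in WT libraries. In CPM these were 1.59, 1.79, 1.35, 13.7 and 7.68 in Tau-P301L and 1.53, 2.05, 1.53 and 1.11 in WT. Libraries 4 and 5 of Tau-P301L stood above all others, and the other 3 were within the WT range. The mean was 5.22 ± 5.42 CPM in Tau-P301L and 1.55 ± 0.384 CPM in WT, and the Tau-P301L mean was 3.10 ± 3.06 CPM without library 4.

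C3 was too low for the edgeR filter. Tested without that filter, its log2 fold change was 1.30 (SE 0.98, adjusted p 0.820 over 24752 genes), and DESeq2 gave 1.34 with an adjusted p of 0.751. The library with the most C3, Tau-P301L library 4, also had the highest summed neutrophil markers (281 CPM), while Tau-P301L library 5 had 5.59 CPM of them and WT library 3, with 1.53 CPM of C3, had 81.5 CPM. Astrocyte markers summed to 535 and 686 CPM in Tau-P301L libraries 4 and 5, and to 603 CPM in library 3, where C3 was at 1.35 CPM. Slc1a2 and Slc1a3 made up most of these sums, and smaller astrocyte markers differed in direction. In Tau-P301L libraries 3, 4 and 5, Gfap was at 2.24, 7.70 and 9.78 CPM and Aqp4 at 37.7, 20.5 and 18.9 CPM. The part of neutrophils and astrocytes in the C3 and C4b values was not tested.

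The regulators were scarce. Cfp (gene 18636, chrX:20925454-20931555), properdin, stabilises the C3 convertase of the alternative pathway, and it had 3.81, 3.57, 8.07, 2.57 and 11.2 CPM in Tau-P301L libraries, against 3.68, 4.77, 0.765 and 0.831 CPM in WT libraries. The lowest 2 values were those of the WT males, at 2 and 3 reads, and the highest 2 were Tau-P301L males. Its log2 fold change was 1.39 (SE 0.88, 95% interval -0.44 to 3.21, adjusted p 0.803). It was 0.87 without WT library 3, 0.85 without WT library 4 and 0.46 without Tau-P301L libraries 3 and 5.

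Serping1 (gene 12258, chr2:84765360-84775444) encodes the C1 inhibitor, which blocks the proteases bound to C1q. It had 2, 1, 0, 0 and 0 reads in Tau-P301L libraries, against 0, 1, 0 and 2 reads in WT libraries, 3 reads in each group. It was at or below the 3-read floor in every library, and no fold change is given.

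C3ar1 and C5ar1 are the receptors for C3a and C5a, the small fragments released when C3 and C5 are cleaved. C3ar1 (gene 12267, chr6:122847140-122856157) had 130, 164, 145, 188 and 289 CPM in Tau-P301L libraries, against 148, 158, 65.0 and 147 CPM in WT libraries. WT library 3 was the lowest and Tau-P301L library 5 the highest, and the others lay between 130 and 188 CPM. Means were 183 ± 63.0 CPM in Tau-P301L and 129 ± 43.2 CPM in WT, a log2 fold change of 0.49 (SE 0.30, 95% interval -0.14 to 1.13, adjusted p 0.796). The log2 fold change was 0.17 without WT library 3 and 0.30 without Tau-P301L library 5.

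C5ar1 (gene 12273, chr7:16246743-16259540) had 42.9, 33.2, 22.4, 47.9 and 34.2 CPM in Tau-P301L libraries, against 99.0, 56.6, 77.7 and 35.2 CPM in WT libraries. All but WT library 4 were above every Tau-P301L library, and WT library 4 lay below 2 of them. Means were 36.1 ± 9.80 CPM in Tau-P301L and 67.1 ± 27.4 CPM in WT, and the log2 fold change was -0.85 (SE 0.33, 95% interval -1.54 to -0.15), with an unadjusted p of 0.0192 and an adjusted p of 0.733. C5ar1 therefore did not pass the threshold. Per length, C3ar1 was 1.81, 2.95, 3.87, 2.34 and 5.05 times C5ar1 in Tau-P301L libraries, against 0.894, 1.67, 0.501 and 2.49 times in WT libraries, a ratio chosen after the values were seen and not tested.

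**Figure D4:**
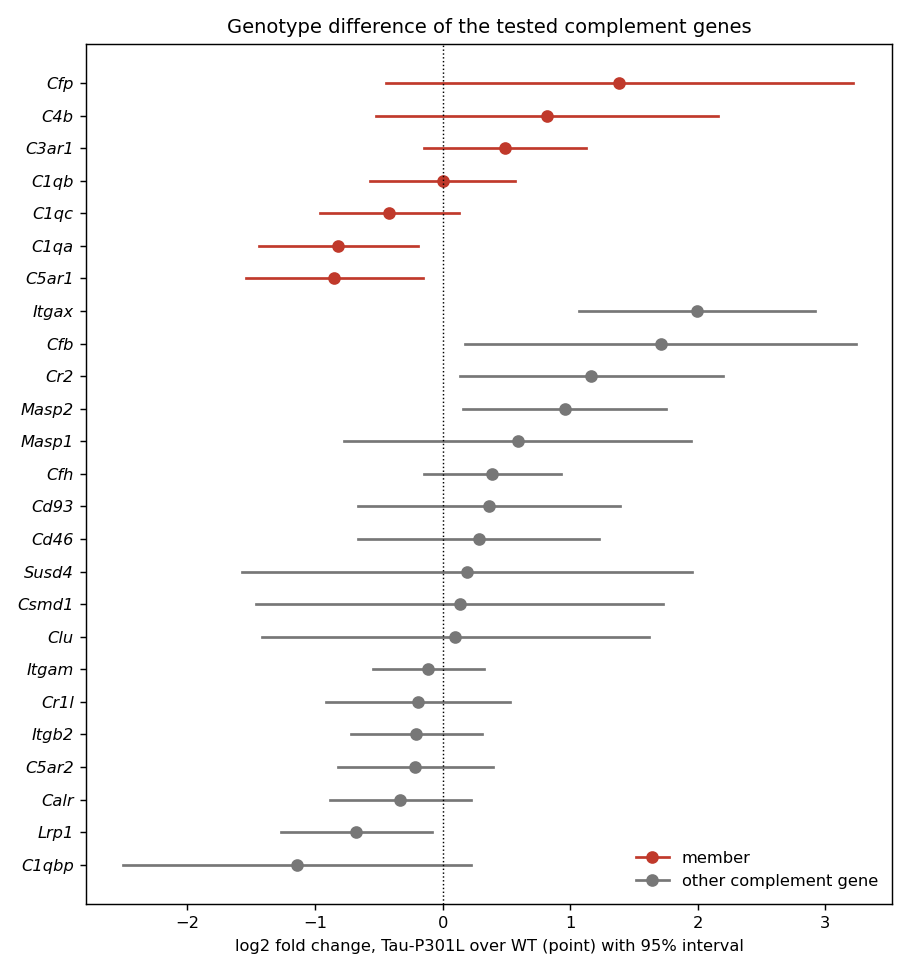
Log2 fold change, Tau-P301L over WT, of the 7 genes of the set tested by edgeR (red, marked member) and of the 18 other complement genes tested (grey), with bars for 95% intervals. The intervals of C1qa and C5ar1 lie below 0, those of the other 5 genes of the set include 0, and none of the genes drawn passed edgeR's adjusted threshold.

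The second comparison was between the sexes, since Cfp lies on the X chromosome. For males over females the log2 fold change was 0.21 for C1qa, 0.46 for C1qb, 0.29 for C1qc, 0.82 for C4b, 0.02 for C3ar1, -0.29 for C5ar1 and -0.44 for Cfp. EdgeR called 0 of these 7 and 0 passed an unadjusted p of 0.05, DESeq2 called 0, and 0.049% of all genes passed edgeR's adjusted threshold.

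Whether the genotype difference itself depended on sex was tested with the product of the 2 terms. EdgeR called 0 of the 8 genes tested and 0% of all 13302 genes, DESeq2 called 0, and 1 of the 8, Cfp, passed an unadjusted p of 0.05, as did 3.95% of all genes. Cfp averaged 7.27 CPM in Tau-P301L males and 0.798 CPM in WT males, and 3.69 CPM in Tau-P301L females and 4.23 CPM in WT females. The log2 fold change was thus larger in males by 3.28 (SE 1.51, unadjusted p 0.0415, adjusted p 0.99999). In these cells the WT males held 5 Cfp reads in all, so this value rests on very few reads.

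C3ar1 averaged 207 CPM in Tau-P301L males and 106 CPM in WT males, and 147 CPM in Tau-P301L females and 153 CPM in WT females, with a product term of 1.02 (SE 0.56, unadjusted p 0.0844). C1qa was lower on average in Tau-P301L in both sexes, at 61.6 CPM in Tau-P301L males and 99.2 CPM in WT males, and at 48.7 CPM in Tau-P301L females and 95.9 CPM in WT females. C5ar1 had the same direction, at 34.8 CPM in Tau-P301L males and 56.4 CPM in WT males, and at 38.0 CPM in Tau-P301L females and 77.8 CPM in WT females. C1qc averaged 331 CPM in Tau-P301L males and 344 CPM in WT males, and 210 CPM in Tau-P301L females and 377 CPM in WT females; its product term had an unadjusted p of 0.133.

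Around these 9 genes, 47 other complement genes were examined, of which 18 had enough reads to test and 11 had no read in any library. EdgeR called 0 of the 18, against 0.00816% of all genes, and gave 11 positive and 7 negative log2 fold changes with a median of 0.16. At an unadjusted p of 0.05, 4 of the 18 were higher and 1 was lower in Tau-P301L, against 3.57% and 2.78% of all genes tested. DESeq2 called 1, Itgax, against 0.152% of all genes. None of the 7 terminal components could be tested. Itgax encodes the alpha chain of complement receptor 4, which binds fragments of C3 on the target, and it had 14.8 to 28.2 CPM in Tau-P301L libraries, against 4.29 to 9.89 CPM in WT libraries, so the groups did not overlap. For Itgax the log2 fold change was 1.99 (SE 0.44), with an adjusted p of 0.308 in edgeR and of 0.00871 in DESeq2. Itgam, the alpha chain of complement receptor 3 and the gene of the protein used for the sort, averaged 2663 ± 335 CPM in Tau-P301L and 2863 ± 237 CPM in WT libraries, with a log2 fold change of -0.11, and 68.67% of its exonic bases are shared with the gene model Gm49368.

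The other genes of smallest p did not pass either test. Cr2, complement receptor 2, averaged 14.8 ± 6.65 CPM in Tau-P301L and 6.41 ± 1.86 CPM in WT, a log2 fold change of 1.17 (adjusted p 0.772). Masp2, a protease that starts the lectin pathway, averaged 30.5 ± 10.2 CPM in Tau-P301L and 16.5 ± 5.41 CPM in WT, a log2 fold change of 0.96 (adjusted p 0.744); 54.94% of its exonic bases overlap Tardbp on the opposite strand, and the counting is not stated to use strand. Cfb, factor B of the alternative pathway, was picked after its values were seen: it had 3.18 to 12.6 CPM in Tau-P301L and 0.919 to 2.73 CPM in WT libraries, without overlap, a log2 fold change of 1.71 (adjusted p 0.776), and 79.5% of its exonic bases are shared with the gene model Gm20547.

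Among the lower genes, Lrp1, an endocytic receptor that with calreticulin takes up C1q-coated material, averaged 569 ± 230 CPM in Tau-P301L and 911 ± 242 CPM in WT, a log2 fold change of -0.68 (adjusted p 0.772). C1qbp, a protein that binds C1q and resides mainly in mitochondria, averaged 4.37 ± 4.37 CPM in Tau-P301L and 9.24 ± 3.82 CPM in WT, a log2 fold change of -1.14 (adjusted p 0.789). Calr, calreticulin, averaged 347 ± 97.8 CPM in Tau-P301L and 409 ± 134 CPM in WT, a log2 fold change of -0.33 (adjusted p 0.842). C5ar2, the second C5a receptor, also chosen after its values were seen, was higher per length than C5ar1 in all 9 libraries, at 17.9 ± 3.08 nRPKM in Tau-P301L and 20.5 ± 11.3 nRPKM in WT. Gm26473, a small nuclear RNA gene on the same strand, overlaps 3.57% of the exonic bases of C5ar2.

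As a description of what varied with C1q, the 5 genes outside the complement lists whose log2 CPM followed the mean of C1qa, C1qb and C1qc most closely were Kif3b, a kinesin motor (Pearson r 0.966), Camk2a, a kinase abundant in neurons (0.964), Ptms, parathymosin (0.963), Cdk11b, a cyclin-dependent kinase (0.946), and Acin1, a nuclear protein linked to splicing (0.945). They were ranked among 2725 genes with a mean of at least 50 CPM. The 9 points are the same libraries with the same scaling factors, and the likeness is not a test.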

How the data were processed

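RNA of Cd11b+ brain myeloid cells was read in 9 libraries, grouped by the genotype and sex in their labels. Per the file headers, the deposited counts give the uniquely aligning reads of each gene model. The deposited RPKM values were rescaled by the authors with a size factor per library, per the file headers, and were used only to compare genes per length. Reads were aligned with GSNAP to GRCm38, per the submitters' processing notes; no source used here gives versions, annotation or strand setting. Human tau is not in the mouse gene models, so the transgene was not checked.

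Gene numbers were matched to symbols in a RefSeq table of GRCm38.p6 (31049 of 36528). Counts were fitted with edgeR 4.0.16 (quasi-likelihood F test, TMM scaling, default low-count filter, robust dispersion, R 4.3.3) with genotype and sex as terms, adding their product for the interaction, and p-values were adjusted by Benjamini-Hochberg over all genes tested at 0.05. Standard errors and intervals derive from the F statistic. The biological coefficient of variation was 0.464. C1q ratios were compared by exact permutation, two-sided, without a sex term. DESeq2 1.42.0, other scaling and filters, and each library left out were alternatives. Libraries of a group differed beyond sampling noise, with a smallest chi-square per degree of freedom of 11.6. Overlaps and shared windows used GENCODE M21, in which no exon of the 9 genes overlaps another gene. Floors and intervals cover counting error or library spread only. Of these steps, the edgeR genotype fit was tested on simulated counts.

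The genes and lists were chosen with earlier results of these data known. All 9 genes are named; from the other complement genes those past the threshold and the 3 of smallest p in each direction, from each marker list the 2 of highest mean CPM, and the 5 genes most like the C1q mean. Itgam, Cfb and C5ar2 were named after their values were seen. The rule takes a further marker gene that, with the sum of its list, is not reported here.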

Additional observations from a re-analysis of the deposited data

Results flagged for a closer look

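Among 24 groups of values tested (9 genes and 3 C1q ratios in each genotype, on the log2 scale), 2 had a library far from the others, and chance alone gives about 1 in 20. C1qa in Tau-P301L library 4 was at 95.35 CPM, set apart above the other 4 Tau-P301L libraries by 0.797 of the group's range, against a limit of 0.71. C3ar1 in WT library 3 was at 65.04 CPM, below the other 3 WT libraries by 0.915 of the range, against a limit of 0.829. With each library left out in turn, the log2 fold change, Tau-P301L over WT, stayed between -1.06 and -0.64 for C1qa and between 0.17 and 0.67 for C3ar1.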

How the results depend on the processing

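The count of all genes called by edgeR was 1. It was 26 without the low-count filter, 20 with DESeq2, 0 without Tau-P301L libraries 3 and 5, 0 in females alone and 0 in males alone, and 0 to 1 when each library was left out. For the 9 complement genes the count called was 0 in 17 of 17 alternatives, and it was 0 in 14 of 14 for sex and for the product term. The log2 fold change of C1qb turned negative without the low-count filter (-0.0163), without Tau-P301L libraries 3 and 5 (-0.0918) and in females alone (-0.37), and ranged from -0.16 to 0.23 with 1 library left out. In females alone C3ar1 was at -0.062 and Cfp at -0.19. C1qa ranged from -1.06 to -0.60, C5ar1 from -1.09 to -0.63, C1qc from -0.85 to -0.05, C4b from 0.35 to 1.08, C3ar1 from -0.06 to 0.97 and Cfp from -0.19 to 3.09 over their alternatives, with adjusted p of 0.313 or more. The cause of these shifts was not tested. C4b had too few reads for a fit in females alone. The 3 C1q ratios kept their sign in 11 alternatives each, with adjusted p above 0.05. Their size was less stable. Without Tau-P301L libraries 3 and 5, C1qa over C1qb went from -0.83 to -0.42 (exact permutation p = 0.286). In that setting C1qa over C1qc went from -0.49 to -0.18 (exact permutation p = 0.2). The unadjusted exact permutation p was 0.0286 for C1qa over C1qb without Tau-P301L library 1 and for C1qa over C1qc without Tau-P301L library 4, the smallest that 4 against 4 libraries allow, at which a single ratio cannot pass the adjustment over 3. Depth limits C3, C4b, Cfp and Serping1 most, which held 298 of the set's 31168 reads. No paired analysis was possible because the labels give no replicate numbers shared by the groups.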
